A study of Vitis vinifera with 219 samples.

Results

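Veraison is the turn from growth to ripening in the grape berry. The fruit softens and colours, sugar import begins in earnest, and abscisic acid, a hormone that promotes ripening in this non-climacteric fruit, accumulates. The genes described here were those with a transient high level at that turn: 176 of the 21425 genes tested (0.821%), out of 29971 gene IDs in all. They were chosen by their own values, as genes whose mean log2(RPKM + 1) at labelled day 0 was at least 1 above that at day -18 to -13 and at least 1 above that at day 42 to 43. RPKM is a read number scaled to gene length and to all mapped reads, so levels can be compared between genes. Means were taken within each cultivar and season and then over the 6 cultivar-seasons, and 1 unit of log2 is a doubling.

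The berries came from field-grown Vitis vinifera vines that were not thinned, of the cultivars Pinot noir (clone FPS 23, grafted on the rootstock Freedom, planted in 2001) and Cabernet Sauvignon (planted in 1997, clone FPS 8, with 5C as rootstock), in 2014, 2013 and 2012. A cultivar difference therefore cannot be told apart from one of rootstock or vine age, nor from one of ripening stage where sugar content differed. Each library was made from pericarp of 60 pooled berries, ground with the seeds removed, and each sampling of a cultivar in a season had 3 libraries (73 such groups). The windows compared were the first sampling (day -37 to -20), before onset (day -18 to -13), onset (day -9 to -6), day 0, post-veraison (day 7 to 11), day 21 to 22, day 28 to 32, day 42 to 43 and the last sampling (day 50 to 80). Each window held 18 libraries, 3 in each of the 6 cultivar-seasons. Replicate numbers are not stated to mark separate vines for each library, so p-values measure the spread between these samples.

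Sums of RPKM per library ranged from 807469 to 1192349, and read depth cannot be known from such values. Within groups, replicates had correlations of 0.952 to 0.993 over genes. Across the study, 4 libraries carried the marker genes of the other cultivar (130 genes): all 3 of Cabernet Sauvignon at day -23 of 2014, and 1 of Pinot noir at day -14 of 2014. Libraries also fell into 2 sets by 225 genes, 215 of them lower in the smaller set. These genes were chosen as those by which 1 library of Cabernet Sauvignon at day -13 of 2013 differed from its replicates. That set held 88 libraries, namely all of 2014, Cabernet Sauvignon from day 43 to 63 of 2013, and 1 library of Cabernet Sauvignon at day -13 of 2013. The labels name no batch, and season and set cannot be told apart for 2014. Pericarp RNA is a mixture of cell types, so a change in the cells present and a change of RNA per cell cannot be told apart.

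Over the windows, the median RPKM of the 176 members was 12.1 at the first sampling, 12.1 before onset, 30.3 at onset, 52.6 at day 0, 42.9 post-veraison, 30.4 at day 21 to 22, 19.2 at day 28 to 32, 14.0 at day 42 to 43 and 6.33 at the last sampling. The climb of this median thus lay between before onset and day 0, the decline was spread over the weeks after it, and the lowest median was that of the ripest berries. The timing of the climb differed between cultivar-seasons. On log2 levels centred on each gene's mean, the median in Pinot noir of 2012 rose from -0.79 at day -18 to 1.165 at day -9. In Cabernet Sauvignon of 2012 it rose from -0.031 at day -9 to 1.502 at day 0. The rise to day 0 had a median of 1.73 on the log2 scale (1.01 to 8.64), and the change from day 0 to day 42 to 43 had a median of -1.59 (-1.0 to -5.93). These values chose the members and are given without a test. The highest of the 9 windows was day 0 for 105 members, post-veraison for 57, day 21 to 22 for 11, and another window for 3. By day 42 to 43, 113 members were within 1 log2 of their level before onset, 28 were at least 1 below it and 35 at least 1 above it.

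The members varied widely in level and in regularity. Their mean RPKM at day 0 ranged from 2.25 to 26810, with 52 members at 100 or more and 15 under 5. The level at day 0 was above that before onset in all 6 cultivar-seasons for 148 members, and the level at day 42 to 43 was below that at day 0 in all 6 for 139. A rise and a fall of at least 1 each were met in all 6 cultivar-seasons by 27 members, and in at most 2 of them by 29. For 112 members the smaller of the rise and the fall was under 1.5, and for 24 it was 2 or more. Just inside the threshold stood VIT_01s0011g04620 with a rise of 1.7888 and a fall value of -1.0007. Just outside stood VIT_16s0022g00940 with 0.9995 and -1.4021, and VIT_09s0002g04470 with 1.2332 and -0.9976.

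**Figure D1:**
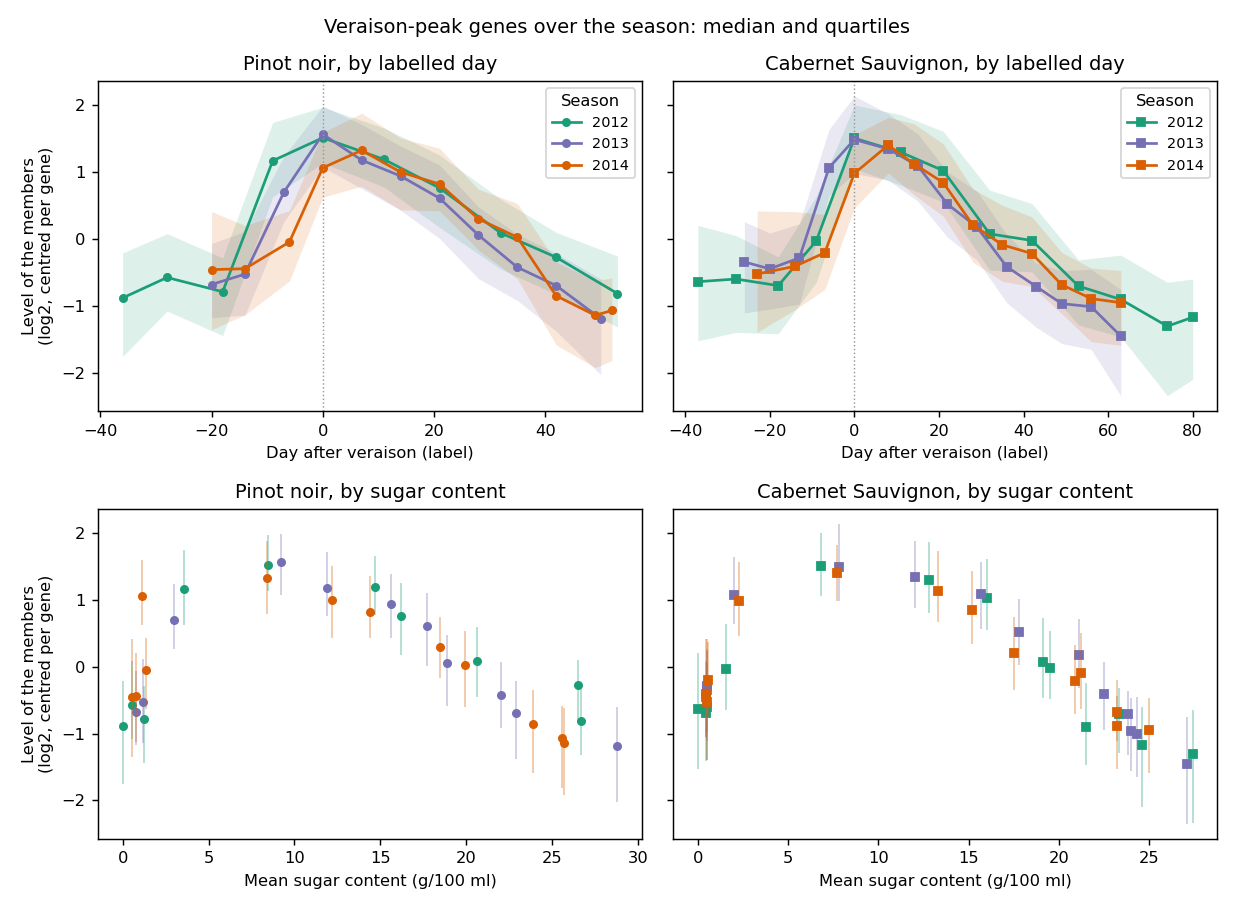
Median level of the 176 members (log2(RPKM + 1), centred on each gene's mean) with quartiles, against labelled day after veraison (top) and mean sugar content in g/100 ml (bottom), for Pinot noir (left) and Cabernet Sauvignon (right) in 3 seasons. Day 0 values chose the members, so the peaks are descriptive. By day, the 2014 curves reach their highest value at day 7 or 8, and those of the other seasons at day 0. By sugar content, all 6 are highest between 6.83 and 9.23 g/100 ml.

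The table names none of its genes, and the members are given by ID with no role, with 1 exception from published use of the IDs. The 4 members with the highest peaks were VIT_01s0137g00240, VIT_05s0051g00590, VIT_06s0004g00070 and VIT_13s0019g00330. Before onset, VIT_06s0004g00070 had a lowest, median and highest RPKM of 0.374, 3.10 and 32.9 over 18 libraries. At day 0 these were 44.1, 76.1 and 98.2, and at day 42 to 43 they were 0.329, 1.12 and 10.7. VIT_05s0051g00590 was about an order of magnitude more abundant at its peak. It had 6.53, 14.6 and 185.1 RPKM before onset, 458.3, 585.6 and 816.0 at day 0, and 11.0, 48.9 and 205.1 at day 42 to 43. VIT_01s0137g00240 showed the steepest end: 1.28, 8.06 and 30.3 RPKM before onset, 50.2, 121.1 and 267.2 at day 0, 0.135, 0.714 and 4.92 at day 42 to 43, and at most 1.06 in the last libraries. VIT_13s0019g00330 had 17.5, 34.8 and 96.6 RPKM before onset, 214.3, 388.3 and 783.7 at day 0, and 4.32, 18.6 and 67.0 at day 42 to 43. In each of the 4 genes the lowest day 0 library exceeded the highest library of both other windows, which describes genes chosen on these same windows and is no support for a peak.

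**Figure D2:**
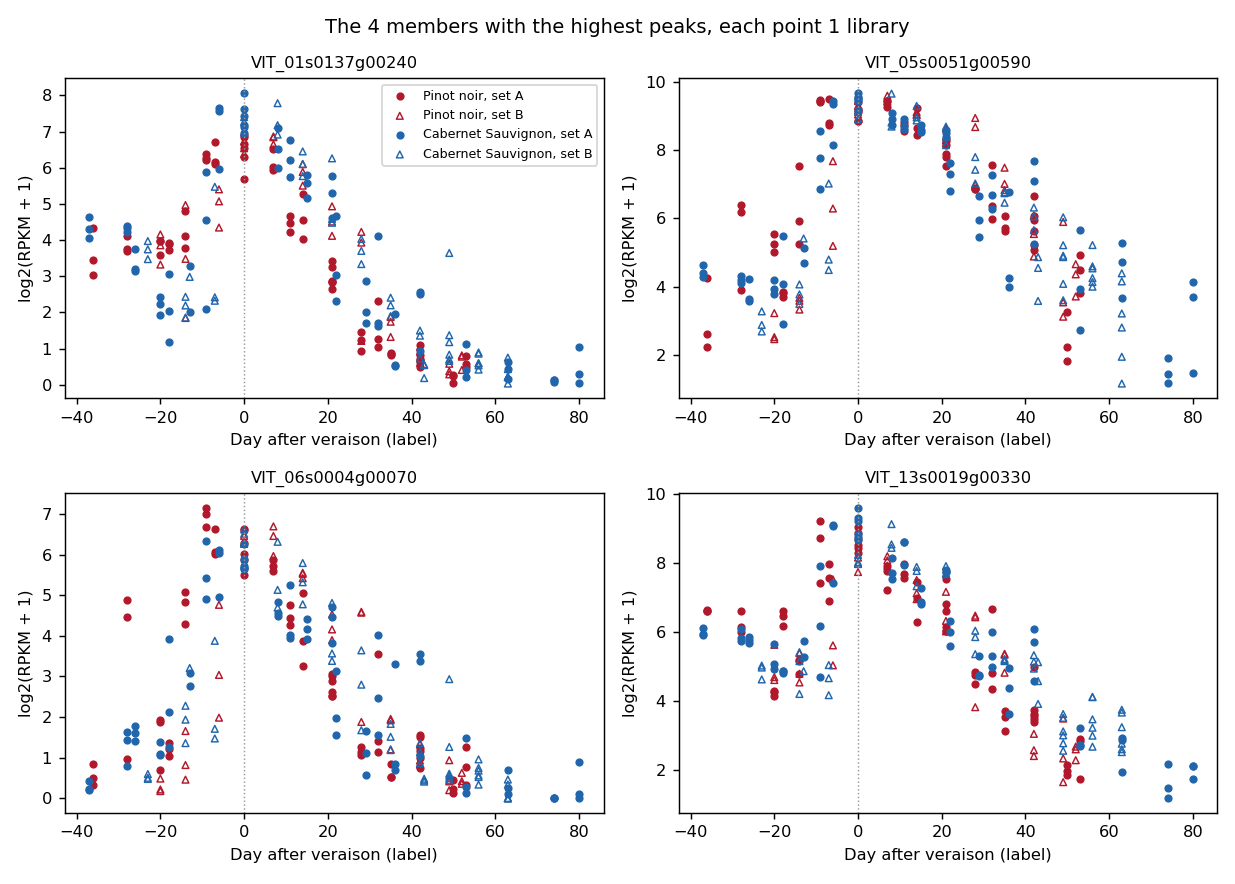
log2(RPKM + 1) of the 4 members with the highest peaks in each library, against labelled day. Colour gives the cultivar, and filled circles and open triangles give the larger (A) and smaller (B) set of libraries. Levels climb before day 0 and fall later, by the last samplings to about the early level or below it, in both cultivars and both sets. In 2014 the median RPKM of each gene but VIT_06s0004g00070 was higher post-veraison than at day 0.

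Among the most abundant members, VIT_00s0187g00160 had 3259, 4271 and 6042 RPKM at day 0, against 434.1, 822.1 and 1111 before onset, and the groups did not overlap. It was already high in the youngest berries, at 444.8, 1298 and 3590 RPKM in the first libraries, and lowest in the ripest, at 37.7, 130.6 and 603.6. VIT_17s0000g03280 reached 1703, 3386 and 4998 RPKM at day 0 and was as high afterwards, with 3744, 3987 and 5553 post-veraison. VIT_14s0030g01220 was high throughout, with 1319, 2704 and 4230 RPKM at day 0, against 794.0, 1171 and 1984 before onset, so its libraries overlapped.

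The member with the highest RPKM, VIT_05s0049g00520, did not show a transient peak once its values of 0 were set aside. It had 10380, 27350 and 46570 RPKM at day 0, and its median stayed at 35880 in the last libraries. It was listed at exactly 0 in 27 libraries between day 11 and day 63, and 24 of these stood beside a replicate of at least 10 RPKM. Without those values its change from day 0 to day 42 to 43 was 0.89 in place of -1.73, which does not meet the rule. VIT_13s0019g02190 was likewise listed at 0 in 160 libraries, and it does not meet the rule without such zeros. Of the 176 members, 5 had a 0 beside a replicate of at least 10 RPKM, 62 such values in all, and these 2 left the rule without them. An exact 0 in such a table can be a failed estimate.

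The first question was whether the rise was under way before day 0. Of the 176 members, 85 were higher at onset than at the first sampling and 0 were lower, by limma with Benjamini-Hochberg adjusted p under 0.05 and a log2 change of at least 1. Over all genes tested, 2.37% were higher and 3.9% lower. The members' median change was 0.97 on the log2 scale, against -0.01 for all genes tested. At an unadjusted p under 0.05, 155 members were higher and 6 lower, against 33.7% and 36.3% of all genes tested. The rule required a rise from before onset to day 0, a span that holds the onset window. Rises of members up to onset were therefore favoured by their choice, and these comparisons with all genes tested are no independent result. VIT_06s0004g00070 had 1.78, 52.6 and 141.8 RPKM at onset, against 0.130, 0.415 and 2.83 at the first sampling, a log2 change of 4.22 (SE 0.22, limma adjusted p 1.43e-39). The groups overlapped in their extremes, since the lowest onset libraries, those of 2014, were below the highest first library. VIT_05s0051g00590 rose by 4.12 (SE 0.22). Without the 4 libraries with markers of the other cultivar, which include the first sampling of Cabernet Sauvignon of 2014, 97 members were higher. Of all genes tested, 610 were higher and 1188 lower in that setting. In the season 2014 alone, 36 members were higher and 21 were lower, against 766 and 618 of all genes tested.

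The second question was on which side of day 0 the members were higher. Post-veraison, 65 members were higher than at onset and 0 were lower, with 2.41% of all genes tested higher and 8.38% lower. The median change was 0.83, against -0.20 for all genes tested, and 161 of the 176 changes were above 0. At an unadjusted p under 0.05, 145 members were higher and 3 lower, against 17.7% and 58.2% of all genes tested. Both windows lie inside the spans over which the rule required a rise and a fall. These comparisons with all genes tested are therefore no independent result. With quantile normalization or TMM scale factors the median over all genes was 0.03 or 0.00, and 88 or 97 members were higher. Without the libraries numbered replicate 2 there were 43, and with a pseudocount of 5 there were 40. The members' median change was 0.497 without 2014. It was 0.379 with each 2014 window except the last sampling moved to the next sampling. The median was 0.07 in Pinot noir of 2012, and 0.38 and 0.16 in Pinot noir and Cabernet Sauvignon of 2013. It was 1.24 in Cabernet Sauvignon of 2012, and 1.23 and 1.5 in Pinot noir and Cabernet Sauvignon of 2014. VIT_17s0000g03280, with the values given above for post-veraison, had 394.8, 1254 and 3032 RPKM at onset and no overlap between the windows. Its log2 change was 1.93 (SE 0.11, limma adjusted p 6.1e-37). VIT_05s0049g00780 had 0.210, 26.7 and 814.4 RPKM post-veraison, against 0.176, 2.95 and 93.3 at onset, a log2 change of 2.75 (SE 0.28), and its libraries overlapped widely. By contrast VIT_06s0004g00070, high at onset already, changed by 0.16 (SE 0.22), and VIT_01s0011g05180 by -0.10 (SE 0.15), with neither past the threshold.

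The decline was under way by the fourth week. At day 28 to 32, 93 members were lower than post-veraison and 0 were higher, with 4.31% of all genes tested lower and 1.95% higher. The median change was -1.04, against -0.02 for all genes, and 174 of 176 changes were below 0. At an unadjusted p under 0.05, 163 members were lower and 2 higher, against 37.2% and 32.1% of all genes tested. VIT_01s0137g00240 had 0.891, 2.65 and 17.7 RPKM at day 28 to 32, against 17.7, 89.8 and 219.5 post-veraison, a log2 change of -3.87 (SE 0.21, limma adjusted p 6.57e-38), and the windows barely met. VIT_01s0011g05180 had 2.55, 17.4 and 35.2 RPKM at day 28 to 32, against 65.5, 165.9 and 366.5 post-veraison, a change of -3.46 (SE 0.15), with no overlap. Both higher at onset than at the first sampling and lower at day 28 to 32 than post-veraison were 51 members, against 0.415% of all genes tested. They were 60% of the 85 members higher in the earlier of these steps. Of the 508 genes higher in it over all genes tested, which include those 85, 17.5% were lower in the later step. The rule itself required a fall after day 0, over a span that holds the later step. Falls of members in that step were therefore favoured by their choice, and these comparisons with all genes tested are no independent result.

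At the end of sampling levels were lower again. At the last sampling 115 members were lower than at day 28 to 32 and 1 was higher, with 4.41% of all genes tested lower and 2.38% higher. The member that was higher, VIT_05s0049g00520, had 4 of its values at day 28 to 32 listed at 0, and its call held in 6 of 17 other settings, and its sign was turned in 1. The median change was -1.23, against 0.01 for all genes. With a pseudocount of 5, 72 members were lower. VIT_13s0064g01260 had 3.11, 20.4 and 51.5 RPKM at the last sampling, against 225.7, 397.8 and 1165 at day 28 to 32. Its log2 change of -4.43 (SE 0.14, limma adjusted p 1.25e-63) came with no overlap between the windows. VIT_14s0068g00510 changed by -3.78 (SE 0.14), with 0, 3.52 and 11.2 RPKM at the last sampling, against 20.9, 59.7 and 144.5 at day 28 to 32. The rule used neither of these windows. The step between them starts at day 28 to 32, inside the span over which the rule required a fall. Falls of members in part of this step were therefore favoured by their choice, and these comparisons with all genes tested are no independent result.

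**Figure D3:**
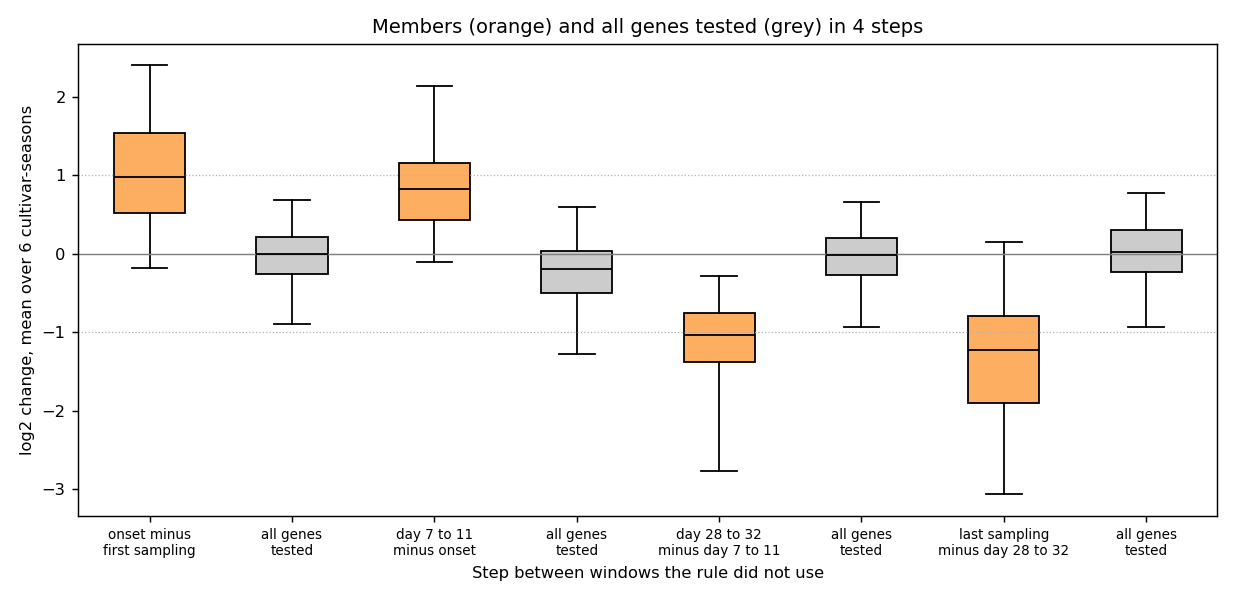
log2 change of the 176 members (orange) and of all 21425 genes tested (grey) in 4 steps between windows that the rule did not use, as the mean over 6 cultivar-seasons. Boxes give the median and quartiles and whiskers the 5th and 95th percentiles. Member medians are 0.97, 0.83, -1.04 and -1.23, in time order. Each step starts or ends within the spans over which the rule required a rise or a fall. Differences between the members and all genes tested are therefore no independent result.

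The anthocyanin genes with published symbols were still high after the members had declined. Of 35 such genes, 1 was a member: VIT_17s0000g00830, published as SWEET10, a transporter that exports sugars from cells. None of the 6 anthocyanin, 10 flavonoid core, 7 proanthocyanidin, 2 stilbene or 5 NAC genes was a member. All 6 anthocyanin genes were higher post-veraison than at onset by limma, with a median log2 change of 3.97. None of them was lower at day 28 to 32 than post-veraison (median -0.23) or at the last sampling than at day 28 to 32 (median -0.38). UFGT, the glucosyltransferase of the last common step to anthocyanins, rose by 4.09 (SE 0.16) and then changed by 0.02 and -0.27. NAC13, a transcription factor of the NAC family, rose by 2.72 (SE 0.09) up to onset and by 1.64 (SE 0.09) after it, and then changed by 0.45 and -0.10. Among the 5 other ripening genes, SWEET10 included, 4 were higher at onset than at the first sampling and 3 were lower at the last sampling than at day 28 to 32. One of them, ERF045, a transcription factor gene, changed by 1.53, 2.04, 0.50 and -1.73 over the 4 steps in time order, with the third short of 1. Differences between these genes and the members were not tested. The proanthocyanidin genes, which act earlier in the berry, had 0 of 7 higher and 2 lower post-veraison than at onset. These symbols come from publications and not from the table, and the lists were drawn up with results of these data known.

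SWEET10 itself had 86.4, 193.0 and 303.8 RPKM before onset, 213.7, 372.1 and 816.4 at day 0, and 9.40, 92.2 and 470.1 at day 42 to 43. It rose by 1.67 (SE 0.17, limma adjusted p 1.23e-16) between the first sampling and onset. It changed by -1.10 (SE 0.17) between post-veraison and day 28 to 32, and by -3.50 (SE 0.17) from there to the last sampling, where it had 2.78, 18.9 and 72.95 RPKM. Post-veraison minus onset was -0.33, -0.40 and -0.00 in Pinot noir of 2014, 2013 and 2012, and 1.92, 1.08 and 1.21 in Cabernet Sauvignon of those seasons. Whether the cultivars differed in this step was not tested. Over both windows SWEET10 had 213.8, 297.3 and 384.0 RPKM in Pinot noir and 224.5, 653.2 and 1403 in Cabernet Sauvignon (18 libraries each), a log2 difference of -0.98 (SE 0.17, limma adjusted p 2.34e-07) that was short of 1.

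Between cultivars, over the onset and post-veraison windows of all 3 seasons, 16 members were higher and 17 lower in Pinot noir than in Cabernet Sauvignon. Over all genes tested 3.02% were higher and 3% lower. The median difference was 0.18, against -0.03 for all genes, and 143 members did not pass. Sugar content at onset was 1.34, 2.97 and 3.58 g/100 ml in Pinot noir of 2014, 2013 and 2012. In Cabernet Sauvignon it was 0.563, 2.0 and 1.55. Post-veraison it was 8.4, 11.9 and 14.7 in Pinot noir, against 7.68, 12.0 and 12.8. A cultivar difference in these windows cannot be told apart from one of ripening stage. Of the members, 1 had no overlap between the cultivars (0.568%), against 3.59% of all genes tested. This was VIT_00s0253g00040, which had 4.14, 26.9 and 43.4 RPKM in Pinot noir and 0.239, 1.55 and 2.21 in Cabernet Sauvignon, a log2 difference of 3.38 (SE 0.11, limma adjusted p 1.88e-66). VIT_10s0116g01340 had 1.83, 42.1 and 73.9 RPKM in Pinot noir and 0, 6.98 and 23.9 in Cabernet Sauvignon, a difference of 2.48 (SE 0.14). In the other direction, VIT_13s0106g00250 had 0.111, 1.09 and 3.58 RPKM in Pinot noir and 3.05, 15.9 and 27.2 in Cabernet Sauvignon, a difference of -2.86 (SE 0.11), with a narrow overlap. VIT_13s0019g02190 was listed at 0 in all 18 Pinot noir libraries and at 0 to 2022 RPKM in those of Cabernet Sauvignon. Without Cabernet Sauvignon of 2013, 28 members were higher and 11 lower in Pinot noir. Its libraries in these 2 windows were all in the larger set. Leaving them out also leaves the seasons unbalanced between the cultivars.

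Day 0 was among the windows that chose the members, so the place and height of their peaks are given as a description, with no test. In 2014 the median curve was highest at day 7 in Pinot noir and day 8 in Cabernet Sauvignon, and in 2013 and 2012 at day 0 in both. Mean sugar content at those samplings was 8.4, 9.23 and 8.47 g/100 ml in Pinot noir of 2014, 2013 and 2012, and 7.68, 7.84 and 6.83 in Cabernet Sauvignon of the same seasons. At labelled day 0 of 2014 it was 1.11 g/100 ml in Pinot noir and 2.26 in Cabernet Sauvignon. In 2014, 130 members in Pinot noir and 122 in Cabernet Sauvignon were highest at a sampling after day 0, against 51 and 38 in Pinot noir of 2013 and 2012 and 70 and 69 in Cabernet Sauvignon of 2013 and 2012. The height of the median curve at its peak was similar, 1.32 and 1.40 in 2014 and 1.48 to 1.56 in the earlier seasons, on the centred log2 scale.

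The onset and post-veraison windows were not used by the rule, but both lie inside the spans over which it required a change. The median of post-veraison minus onset was 1.23 and 1.5 in Pinot noir and Cabernet Sauvignon of 2014, 0.38 and 0.16 in 2013, and 0.07 and 1.24 in 2012. Cabernet Sauvignon of 2012 was thus closer to 2014 than to Pinot noir of its own season. In the test of 2014 against the mean of 2013 and 2012, that step was larger for 85 members and smaller for 5 by limma, with 1.27% and 2.47% of all genes tested. The median difference was 1.01, against -0.01 for all genes. The members were chosen for changes in this part of the season, so their excess over all genes tested is no independent result. VIT_06s0004g00070 had 1.78, 5.09 and 26.2 RPKM at onset of 2014 (6 libraries), against 29.1, 67.1 and 141.8 in the earlier seasons (12 libraries), with no overlap. Post-veraison it had 24.9, 70.1 and 102.7 RPKM in 2014, against 14.3, 24.3 and 57.3 earlier, and the seasons overlapped. Its difference between seasons in the step was 4.37 (SE 0.47, limma adjusted p 7.23e-14). VIT_17s0053g00990 had 7.09, 17.4 and 163.2 RPKM at onset of 2014, against 32.2, 213.1 and 401.1 earlier, and a difference in the step of 3.32 (SE 0.47).

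When each 2014 window except the last sampling was moved to the next sampling, no member had a larger step in 2014. The step was smaller for 16, and the median difference was -0.44. Sugar content at onset of 2014 was then 1.11 g/100 ml in Pinot noir, still below the 2.97 and 3.58 of 2013 and 2012. In Cabernet Sauvignon it was 2.26, against 2.0 and 1.55. Post-veraison it was 12.2 in Pinot noir, against 11.9 and 14.7, and 13.3 in Cabernet Sauvignon, against 12.0 and 12.8. Each of the 10 named members with a larger step in 2014 by labelled day changed sign or lost its call. With the 2014 windows so moved, 18 members were higher and 3 lower post-veraison than at onset over all seasons. Of all genes tested, 412 were higher and 1453 lower. In the season 2014 alone 121 members were higher and 1 lower, against 686 and 2443 of all genes tested. Without 2014, 32 members were higher and 2 lower, against 487 and 1647 of all genes tested.

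**Figure D4:**
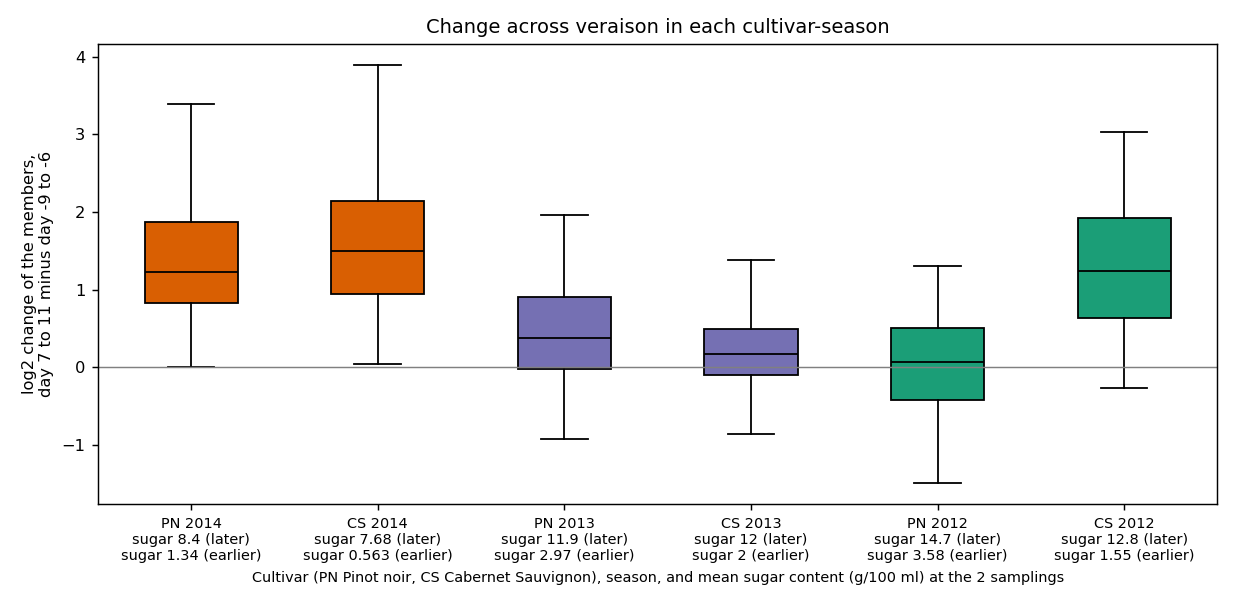
log2 change of the 176 members between onset (day -9 to -6) and post-veraison (day 7 to 11) in each cultivar-season, with mean sugar content (g/100 ml) of both samplings under each box. Boxes give the median and quartiles and whiskers the 5th and 95th percentiles, with medians of 1.23 and 1.5 in 2014, 0.38 and 0.16 in 2013, and 0.07 and 1.24 in 2012.

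Some members moved with the library sets. Of the 225 genes that defined the sets, 9 were members (5.11% of the members, against 1.05% of all genes tested), and 7 of the 9 had an ID with no chromosome number. The 225 were chosen at day -13 of Cabernet Sauvignon in 2013, a sampling the rule used too. The difference between these shares is therefore no independent result. VIT_19s0015g02880 had 5.66, 5.38 and 3.84 RPKM at day 43 of Cabernet Sauvignon in 2013, against 773.4, 693.3 and 691.3 at day 36. That sampling is where this cultivar-season passed from one set to the other, so the fall of such genes there cannot be told apart from the set. VIT_00s2342g00020 was at 0 RPKM in the 3 libraries of day 43 and had 48.2, 32.3 and 29.7 at day 36. At day 0, 9 members had under 10% in 2014 of their mean RPKM of the earlier seasons in at least 1 cultivar, counted where that mean was 1 or more, against 1.31% of all genes tested. Of these 9 members, 4 were among the set genes. VIT_05s0049g00780, also among the 9 but not a set gene, had a mean of 3.26 RPKM in 2014 and 274.4 earlier in Pinot noir. It and VIT_00s0556g00020, at 0 in all 6 post-veraison libraries of 2014 and at 1.77 to 23.0 RPKM in the 12 earlier ones, were the members with the most negative season difference in the step, at -3.23 and -2.81. The part of the sets in these values was not tested.

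**Figure D5:**
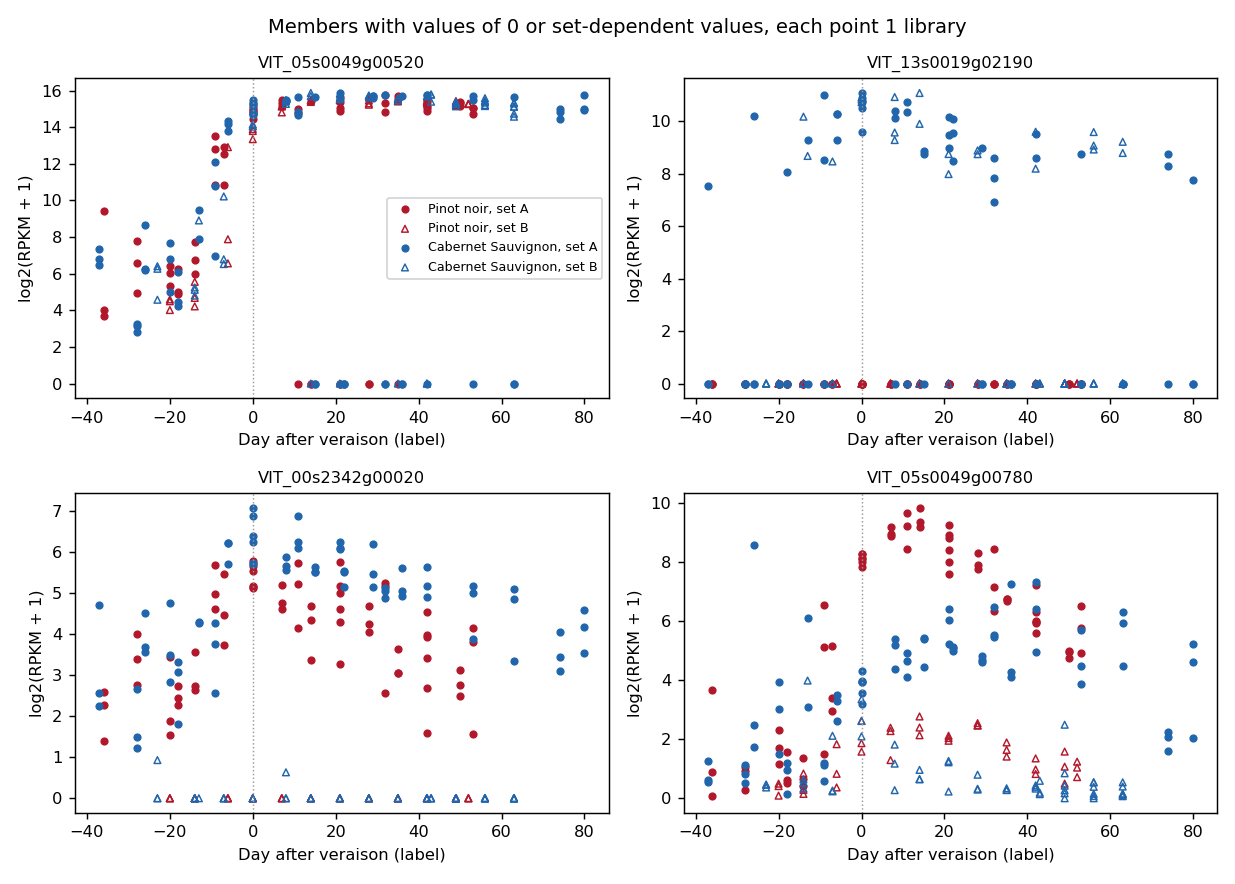
log2(RPKM + 1) in each library against labelled day for 2 members with values of exactly 0 beside high replicates (top) and 2 members whose level moves with the library set (bottom). Colour gives the cultivar, and filled circles and open triangles give the larger (A) and smaller (B) set. VIT_05s0049g00520 stays at its plateau after day 0 apart from 27 libraries at 0, and VIT_00s2342g00020 is at or near 0 in set B throughout.

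Some members had neighbouring IDs. The IDs carry a chromosome number and a running number, and 31 members (17.6%) lay within 5 positions of another member, in 14 runs. Of the 1090 tested genes within 5 positions of another gene that is a member, these 31 made up 2.84%, and members made up 0.821% of all genes tested. That difference was not tested. The longest run was VIT_08s0007g08000, VIT_08s0007g08010, VIT_08s0007g08020 and VIT_08s0007g08030, which took up all 4 tested genes of its span. Their mean RPKM at day 0 was 169.9, 268.0, 143.9 and 59.9, in that order, against 91.3, 29.3, 44.5 and 9.37 before onset. Post-veraison minus onset was 0.76, 1.91, 1.80 and 1.31 in log2, and the last 3 passed the test. From post-veraison to day 28 to 32 the changes were -0.58, -0.30, 0.41 and -0.87, and none passed the threshold. All 4 were lower at the last sampling than at day 28 to 32, by -1.13, -1.13, -3.68 and -2.40. VIT_17s0000g09800 and VIT_17s0000g09810 formed a pair with mean RPKM of 246.3 and 295.0 at day 0, against 2.33 and 2.60 before onset. SWEET10 stood next to VIT_17s0000g00820, another member, which had 3.35, 43.5 and 177.8 RPKM at day 0. Neighbours can be related copies that share reads, and how shared reads were assigned is not given in the sources used here. IDs with no chromosome number made up 13.6% of the members and 8.12% of all genes tested.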

How the data were processed

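The authors deposited RPKM in a single table with 29971 gene IDs and 1 column per library. Per the submitters' processing notes, TopHat2 2.0.6 and Cufflinks 2.0.2 made it. Genome build, annotation and settings: not given in the sources used here. Per the labels' protocols, libraries were non-directional, so overlapping genes on opposite strands cannot be told apart. Read counts are not part of the table, so counting intervals were not computed. Values were analysed as log2(RPKM + 1), which understates changes of low genes. A gene was tested where 3 or more libraries reached an RPKM of 1 (21425 genes). Group means (73 groups of 3) were fitted in R 4.3.3 by limma 3.58.1, with trended and robust variance moderation, 146 residual degrees of freedom and input through the data.table package (version 1.17.8). The fit was checked on simulated data. Contrasts weighted the 6 cultivar-seasons equally. Adjusted p-values (Benjamini-Hochberg) covered all genes tested, and calls needed an adjusted p under 0.05 and a log2 change of at least 1. Standard errors measure spread between libraries within groups, not between seasons. The members and lists were chosen with earlier results of these data known. In the member list, 1 gene is not reported here. Members were named by rule: the 4 highest in RPKM at day 0, the 4 highest peaks, those at the threshold, up to 2 higher and 2 lower per comparison, members with published symbols and the longest run, with some left out for length. Members named beyond it, after their values were seen, were VIT_17s0000g00820, VIT_17s0000g09800, VIT_17s0000g09810, VIT_19s0015g02880 and VIT_00s2342g00020. None of the table's IDs matched the reference names (0 matches), and no sequences are shown. Alternatives changed the pseudocount (0.1 or 5), the filter (none, or a mean RPKM of 5 or more) or the scaling (quantile normalization, or unweighted TMM scale factors). Others added a replicate block, or left out 1 replicate number, 1 season or the libraries with markers of the other cultivar. Another re-anchored 2014, moving each of its windows except the last sampling to the next sampling. Chosen after seeing the data were leaving out Cabernet Sauvignon of 2013, 2014 alone, and leaving out exact zeros. Tables and figures used Python 3.11.15, pandas 2.3.3 and matplotlib 3.10.9.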

Additional observations from a re-analysis of the deposited data

Results flagged for a closer look

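The step from onset to post-veraison differed between 2014 and the mean of 2013 and 2012, by the interaction term in limma, for 85 members with a larger step in 2014 and 5 with a smaller one. The named members among them had these differences in log2 (2014 minus earlier seasons): VIT_06s0004g00070 4.37, VIT_17s0053g00990 3.32, VIT_05s0051g00590 3.20, VIT_01s0137g00240 2.98, VIT_13s0019g00330 2.83, VIT_08s0007g08010 2.22, VIT_00s0187g00160 1.75, VIT_08s0007g08030 1.36, VIT_00s0253g00040 1.06 and VIT_17s0000g03280 1.03. The smaller steps were those of VIT_05s0049g00780 (-3.23), VIT_00s0556g00020 (-2.81) and VIT_01s0011g05120 (-1.22). Over all genes tested 1.27% had a larger and 2.47% a smaller step. The members were chosen for changes in this part of the season, so their excess over all genes is no independent result. Sugar content at onset was 1.34 g/100 ml in Pinot noir and 0.563 in Cabernet Sauvignon of 2014, against 2.97 and 3.58 in Pinot noir and 2.0 and 1.55 in Cabernet Sauvignon of 2013 and 2012. VIT_01s0011g05120 had a mean of 0.671 RPKM at day 0 of 2014 in Pinot noir, against 46.2 in the earlier seasons, and season and library set cannot be told apart for 2014. Groups of 3 libraries are too small for the check on single outlying samples.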

How the results depend on the processing

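Directions of the member counts were kept in the settings run, except where named here. With the pseudocount 0.1, 265 genes met the rule, 1 member was lower post-veraison than at onset, 1 was lower at onset than at the first sampling, 2 were higher at the last sampling than at day 28 to 32, and 2 had a smaller step in 2014. With the pseudocount 5, 109 genes met the rule, 40 members were higher post-veraison than at onset, and 72 were lower and 0 higher at the last sampling than at day 28 to 32. That last count of 1 higher member was also 0 without a filter, with quantile normalization, with TMM scale factors and without the libraries with markers of the other cultivar, and 2 when 2014 was re-anchored, without 2014 or without Cabernet Sauvignon of 2013. With a mean RPKM of 5 or more, 3 members had a smaller step in 2014.

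With 2014 re-anchored to the next sampling, 18 members were higher and 3 lower post-veraison than at onset. In that setting 0 had a larger and 16 a smaller step in 2014. Under it VIT_13s0019g00330 changed by -0.0566 post-veraison minus onset. The season difference in that step was then -1.23 for VIT_00s0187g00160, -0.0822 for VIT_00s0253g00040, -0.798 for VIT_01s0137g00240, -0.257 for VIT_05s0051g00590, -1.21 for VIT_08s0007g08010, -0.759 for VIT_08s0007g08030, -0.799 for VIT_13s0019g00330, -0.815 for VIT_17s0000g03280 and -0.739 for VIT_17s0053g00990. Without 2013, 3 members were lower at onset than at the first sampling and 8 had a smaller step in 2014. Without 2014, 32 were higher and 2 lower post-veraison than at onset. Without Cabernet Sauvignon of 2013, 28 were higher and 11 lower in Pinot noir. In 2014 alone, 121 were higher and 1 lower post-veraison than at onset, and 36 were higher and 21 lower at onset than at the first sampling, with VIT_08s0007g08010 at -1.60 in that step and VIT_05s0049g00520 at -0.248 between day 28 to 32 and the last sampling. The causes were not tested.

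With 1 replicate number left out, 43 (without replicate 2) to 73 members were higher post-veraison than at onset, 0 to 1 were higher at the last sampling than at day 28 to 32, and 173 to 188 genes met the rule. Without exact zeros beside a replicate of 10 RPKM, 180 genes met it. The replicate block changed no count of members called, for example 65 higher post-veraison than at onset. Same-number libraries had correlations of -0.179 to 0.139, 3 of 18 over 0.1, and matched best with their own number in 6 of 18 comparisons, so they share only a number. Of 82 calls of named members, 34 held in every setting run and 12 changed sign in at least 1.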
